A study of Gallus gallus with 12 samples.

Results

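The 6 feather follicle libraries of 7-week-old chickens were grouped by the number of Dominant white (I) alleles that the study's genotype table gives each bird: 3 libraries had 2 copies (genotype II: 7W1, 7W3 and 7Y4) and 3 had 1 copy (genotype Ii: 7W2, 7Y1 and 7Y3). They are 6 of the 12 libraries of the series. The first digit of a library's name is the age in weeks, with 1 standing for 11 weeks, the letter is the plumage colour, white (W) or yellow (Y), and the last digit is the replicate number. The birds were F3 offspring of a cross of Huiyang Bearded chickens, a yellow Chinese breed, with White Leghorns, which carry Dominant white. All 6 birds carried CC at the recessive white locus and s/W at the Silver locus, the single Z chromosome genotype of a hen. With genotypes II and Ii none lacked the I allele, so the comparison is of a second copy against a single one. Colour was not balanced over the copies. Of the 2-copy libraries 2 were white and 1 was yellow, and of the 1-copy libraries 1 was white and 2 were yellow. Each library held the follicles of several feathers plucked from the nape, cut at the base and extracted with epithelium and pulp together, and fewer cells of a type and less RNA per cell cannot be told apart in such bulk tissue. Which birds shared parents is not given in the sources used here, and the I allele travels with the White Leghorn segment around it, so copies count that segment of chromosome 33 as well.

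Melanin is made by melanocytes of the feather barb ridge inside melanosomes, organelles whose early scaffold is a sheet of fibrils cut from the PMEL protein. On these fibrils tyrosinase and the related enzymes TYRP1 and DCT build black eumelanin, while yellow and red pheomelanin forms from cysteine-bound intermediates in melanosomes with little fibrillar scaffold. Dominant white is a small in-frame insertion in the part of PMEL that spans the membrane, and it blocks eumelanin far more than pheomelanin. The deposited values, FPKM (fragments of a gene, scaled by its length and by the mapped fragments of the library), sum the reads of both alleles of PMEL, so the insertion itself cannot be checked in them.

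The FPKM of the 6 libraries summed to between 700237 and 830214, and between 9906 and 10666 genes had an FPKM of at least 1. The depth behind a single FPKM is unknown, since the values carry no read counts. Spearman correlations between libraries over the 10257 genes that averaged 1 FPKM or more ran between 0.942 and 0.979. Libraries of equal colour resembled each other at 0.960 to 0.979 and those of unlike colour at 0.942 to 0.976, so the ranges overlapped. Libraries with equal copies resembled each other at 0.942 to 0.976 and those with unlike copies at 0.948 to 0.979, so these ranges overlapped too. The least alike pair, 7W1 and 7Y4 at 0.942, had the same 2 copies and different colours. The most alike pair, 7Y4 and 7Y1 at 0.979, had unlike copies and the same colour. The study names these libraries as samples of different birds. P-values therefore measure the spread between birds, plucking and preparation together. In the fit without colour, this spread also holds the difference between white and yellow birds.

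No gene differed between 2 copies and 1 copy past the thresholds of an adjusted p of at most 0.05 and a log2 difference of at least 1 on the scale log2(FPKM + 0.1). Of the 10257 genes, 0 passed in the higher direction (0%) and 0 in the lower direction (0%) with limma, where the adjusted p did not go below 0.356 and 338 genes were under 0.05 before adjustment. That last count was 1356 without 7Y4, 170 without 7W1 and 167 without 7Y3. With colour as a covariate the count was again 0 (0%), adjusted p-values began at 0.0662 and 326 genes were under 0.05 before adjustment. The median log2 difference over all genes was 0.02, or 0.06 with colour as a covariate. A coarser description is the order of the libraries. In 614 genes (5.99%) every 2-copy library was above every 1-copy library, and in 187 genes (1.82%) every 2-copy library was below. Together these were 801 genes (7.81%). For a gene without any copy difference, such an order in either direction has a probability of 0.10. An exact permutation test of 3 against 3 libraries, two-sided, cannot give a p below 0.10, so these genes are described and not called.

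PMEL itself, on chromosome 33 from 7092008 to 7095774 in the GRCg6a build, did not order with the copies. It had 1066.3, 424.6 and 95.3 FPKM in the 2-copy libraries 7W1, 7W3 and 7Y4, against 557.5, 126.4 and 195.2 FPKM in the 1-copy libraries 7W2, 7Y1 and 7Y3. The groups overlap over most of their range, and the 3 white libraries were above the 3 yellow ones whatever their copies. The log2 difference was 0.55 ± 0.91 (SE; limma, adjusted p = 1), and with colour as a covariate it was -0.22 ± 0.42 (adjusted p = 0.999). Within white libraries the 2-copy mean was 0.27 above the 1-copy library on the log2 scale, and within yellow libraries the 2-copy library was 0.72 below the 1-copy mean (a difference of -0.72). 

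Of the other genes of the pigment organelle, MLANA split by colour as PMEL did. MLANA, a melanosome protein that binds PMEL, had 382.8, 168.6 and 62.5 FPKM in 2-copy libraries, against 229.4, 66.8 and 116.7 FPKM in 1-copy libraries. The lowest of the 6 values was that of the yellow 2-copy bird, and the log2 difference of 0.39 ± 0.70 turned to -0.18 ± 0.39 with colour as a covariate. GPR143, the melanosome membrane receptor, differed by 0.16 ± 0.44, GPNMB, a glycoprotein related to PMEL, by 0.19 ± 0.19, and BACE2, a protease that cuts PMEL, by 0.30 ± 0.34. With colour as a covariate these were -0.14 ± 0.34, 0.08 ± 0.16 and 0.11 ± 0.30, and in none of the 3 were all white libraries above all yellow ones. Of the 9 tested genes of the list on PMEL and melanosome structure, 8 had a positive difference, 0 were called and 1, RAB7A, a GTPase of late endosomes, was higher without overlap, by 0.08 ± 0.08, where 5.99% of all genes were higher without overlap. The list's median was 0.19, beside 0.02 over all genes, and 0.04 with colour as a covariate, beside 0.06 over all genes.

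Among the enzymes, TYRP1, which acts late in eumelanin synthesis, had 150.5, 70.7 and 11.2 FPKM in 2-copy libraries, against 67.7, 22.9 and 17.2 FPKM in 1-copy libraries. Here too the lowest value was that of the yellow 2-copy bird 7Y4 and the highest that of the white 2-copy bird 7W1. The log2 difference was 0.72 ± 0.96, and -0.10 ± 0.42 with colour as a covariate. TYR, tyrosinase, the rate-limiting enzyme of both melanins, had 65.3, 25.7 and 20.5 FPKM in 2-copy libraries, against 29.5, 23.4 and 29.0 FPKM in 1-copy libraries. Apart from 7W1, the TYR values of both groups lay within 20.5 to 29.5 FPKM. DCT had a mean FPKM of 0.693, below the minimum for testing, and its highest value, 3.04 FPKM, was in the white 1-copy library 7W2.

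SLC24A5, a cation exchanger needed for melanosome maturation, had 11.1, 4.57 and 1.44 FPKM in 2-copy libraries, against 6.67, 2.22 and 1.58 FPKM in 1-copy libraries. MFSD12, which brings cysteine into melanosomes and so feeds pheomelanin, had 10.7, 7.34 and 20.8 FPKM with 2 copies, against 7.05, 19.4 and 52.8 FPKM with 1 copy. Its 3 white values were below its 3 yellow values, the reverse of PMEL. HPGDS, the prostaglandin D synthase that uses glutathione, had 128.2, 52.7 and 14.3 FPKM in 2-copy libraries, against 96.5, 17.4 and 34.1 FPKM in 1-copy libraries, with a log2 difference of 0.25 ± 0.89 and of -0.50 ± 0.42 with colour as a covariate. For PMEL, MLANA, TYRP1, SLC24A5 and HPGDS alike, the difference changed sign once colour was in the model and also without 7W1, the library with the highest PMEL.

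**Figure D1:**
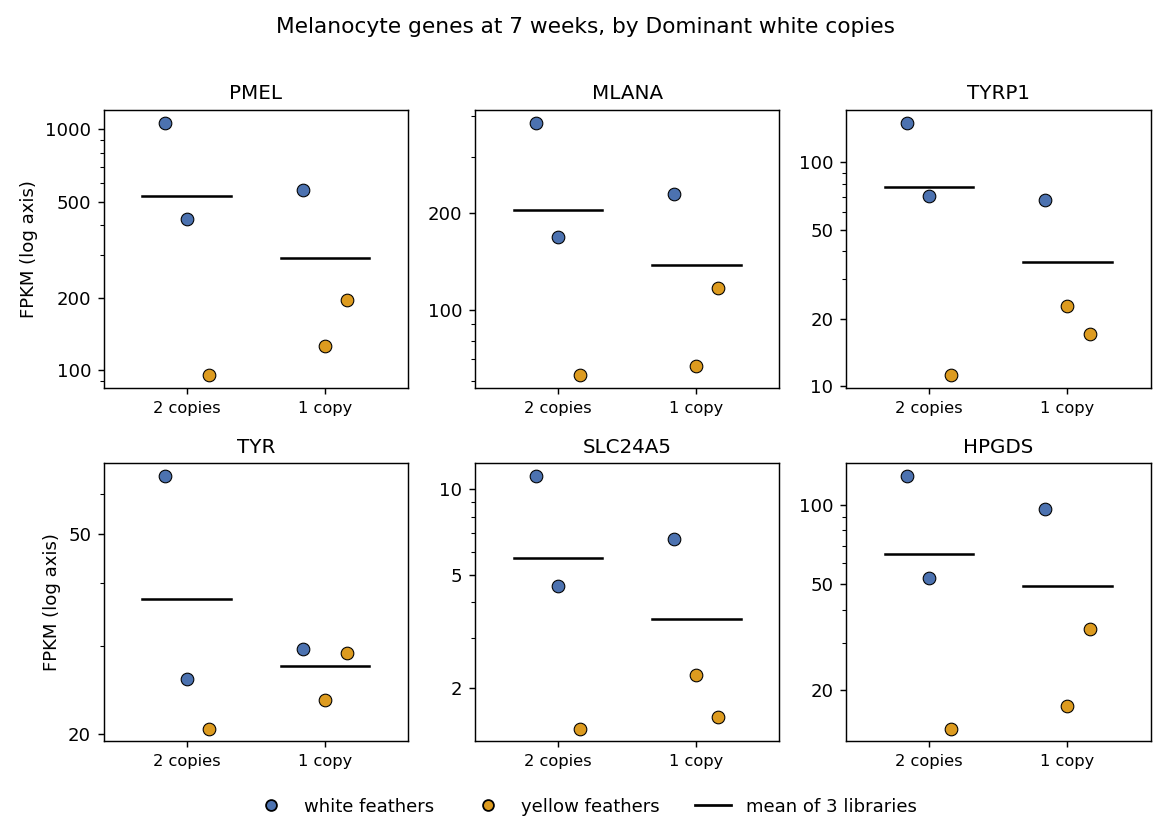
FPKM (log axis) of 6 pigment genes in the 7-week libraries with 2 copies and 1 copy of Dominant white; each point is a library coloured by plumage, and the line is the mean of 3 libraries. In the PMEL panel the white libraries, 1066.3, 424.6 and 557.5 FPKM, stand above the yellow ones, 95.3, 126.4 and 195.2 FPKM, in both copy groups.

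The hormonal input to the pathway showed no order by copies either. POMC, the precursor of the melanocortin hormones, had 1.20, 0.765 and 16.3 FPKM in 2-copy libraries, against 1.62, 7.07 and 24.7 FPKM in 1-copy libraries, again split by colour. MC1R, the melanocortin receptor whose activity favours eumelanin, had 7.69, 3 and 3.31 FPKM in 2-copy libraries, against 0.871, 8.85 and 12.8 FPKM in 1-copy libraries. Its lowest and highest values were both in 1-copy libraries. EDN3, an endothelin that drives melanocyte growth, had 7.94, 11.5 and 7.58 FPKM with 2 copies, against 8.44, 4.29 and 6.06 FPKM with 1 copy (log2 difference 0.54 ± 0.28, adjusted p = 1). Of the 7 tested melanocortin pathway genes 4 had a positive difference (median 0.07), of 9 lineage regulators 6 (median 0.14), and of 19 genes of melanosome biogenesis and transport 11 (median 0.06). None of these lists held a called gene or a gene without overlap.

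Glutathione and stress genes were close between the groups. Of 19 tested thiol and glutathione genes, 11 had a positive difference, the median was 0.04, and 1 gene was higher and 1 lower without overlap, beside 5.99% and 1.82% of all genes. GSS, glutathione synthetase, had 27.7, 27.7 and 27.8 FPKM in 2-copy libraries, against 31.5, 34.2 and 31.4 FPKM in 1-copy libraries. The groups did not overlap, and the log2 difference was -0.22 ± 0.09 (adjusted p = 1). GCLM, the modifier subunit of the enzyme that begins glutathione synthesis, lay the other way, at 39.4, 38.7 and 40.7 FPKM in 2-copy libraries, against 34.7, 35.7 and 36.6 FPKM in 1-copy libraries. CHAC1, which breaks down glutathione and is induced in the unfolded protein response, had 0.818, 1.36 and 1.44 FPKM with 2 copies, against 1.75, 2.89 and 3.68 FPKM with 1 copy. Its log2 difference of -1.11 ± 0.35 (limma, adjusted p = 1) was the largest in size among the 17 tested genes of the ER stress list, whose others lay between -0.24 and 0.12 and whose median was -0.02. The yellow birds of 11 weeks, not used for the grouping, gave CHAC1 at 4.02 FPKM in the 2-copy library 1Y4, against 3.02 and 4.31 FPKM in the 1-copy libraries 1Y1 and 1Y3, with no order by copies.

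Around PMEL, where the copies also count the linked chromosome segment, most genes lay near 0. Of 79 tested genes starting within 500 kb of the start of PMEL, 57 had a positive difference (the median was 0.08), against 5798 of all 10257 genes (56.5%, median 0.02), and with colour as a covariate 49 were positive (median 0.03), against 6848 of all genes (66.8%, median 0.06). In this window 2 genes were higher and 1 was lower without overlap, shares below the 5.99% and 1.82% of all genes. The immediate neighbours of PMEL barely differed by copies. CDK2, the cell cycle kinase 3.3 kb before the start of PMEL, had 169.1, 131.1 and 98.2 FPKM in 2-copy libraries, against 137.0, 100.1 and 101.3 FPKM in 1-copy libraries, and DGKA, a diacylglycerol kinase on the other side, had 13.3, 11.9 and 11.9 FPKM, against 13.7, 13.3 and 11.8 FPKM. The white libraries were all above the yellow ones in CDK2, as in PMEL. Its log2 difference was 0.22 ± 0.22, and 0.04 ± 0.12 with colour as a covariate.

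SENP1, a protease that removes SUMO from proteins (7267802 to 7281369), had 7.91, 5.32 and 7.19 FPKM in 2-copy libraries, against 4.46, 4.86 and 3.62 FPKM in 1-copy libraries. It did not overlap, the log2 difference was 0.64 ± 0.20, and it was 0.53 within white and 0.76 within yellow libraries, but 0.03 among the yellow libraries of 11 weeks. ENSGALG00000048019, which the files give no symbol, was the other gene without overlap in the higher direction, at 8, 5.46 and 6.31 FPKM with 2 copies, against 3.72, 2.66 and 4.67 FPKM with 1 copy. COL2A1, the cartilage collagen, and STAT2, which carries interferon signals, had log2 differences of 0.72 ± 0.31 and 0.51 ± 0.23 and overlapped between the groups. On chromosome 33 as a whole, 217 genes were tested, 12 were higher and 4 lower without overlap, shares close to the 5.99% and 1.82% of all genes, and the median was 0.06.

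**Figure D2:**
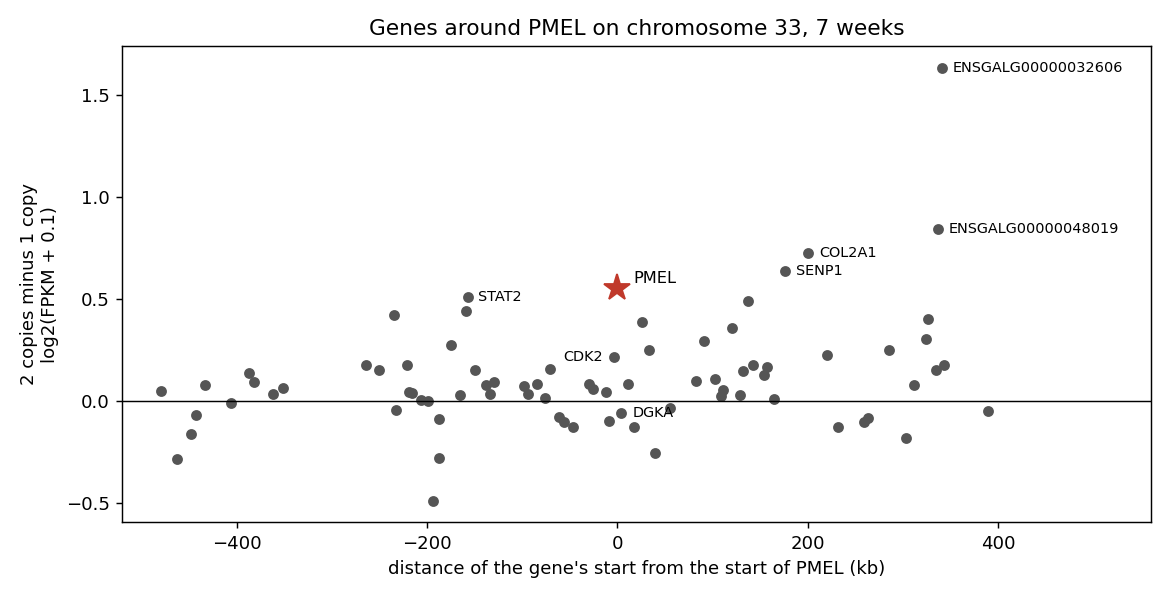
Log2 difference in log2(FPKM + 0.1), 2 copies minus 1 copy at 7 weeks, of each tested gene (points) against the distance of its start from the start of PMEL (star) in kb on chromosome 33. Most points lie near 0, the median of the 79 neighbours is 0.08, and CDK2 and DGKA, beside PMEL, are at 0.22 and -0.06.

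Smooth muscle markers had the lowest median among the lists. All 7 tested smooth muscle markers had a negative difference, with a median of -0.63 (-0.79 with colour as a covariate), beside 0.02 and 0.06 over all genes, and 3 of the 7 did not overlap, where 1.82% of all genes were lower without overlap. None was called. In birds these genes encode the contractile apparatus of vessel walls and of the feather muscles that move the follicle. DES, desmin, the intermediate filament of muscle, had 13.4, 14.2 and 12 FPKM in 2-copy libraries, against 26.5, 15.7 and 26.4 FPKM in 1-copy libraries (log2 difference -0.75 ± 0.22). CNN1, calponin, had 3.92, 3.66 and 2.59 FPKM with 2 copies, against 8.13, 4.28 and 7.91 FPKM with 1 copy (-0.94 ± 0.29). MYH11, smooth muscle myosin, had 0.785, 0.761 and 0.872 FPKM with 2 copies, against 1.58, 1.39 and 1.54 FPKM with 1 copy (-0.82 ± 0.25). MYH11 averaged 0.806 FPKM with 2 copies and 1.5 FPKM with 1 copy. It reached the minimum mean of 1 FPKM only through the 1-copy libraries, so the filter helped to select its order. In these genes the white and the yellow libraries had the same order, and in DES and CNN1 the 1-copy library 7Y1 stood close to the 2-copy group.

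The 2 tested striated muscle markers went opposite ways, and their median was 0.15. ACTA1, the striated muscle actin, was at 8.50, 10.9 and 8.89 FPKM in 2-copy libraries, against 18.5, 13.5 and 21.3 FPKM in 1-copy libraries (-0.89 ± 0.19, limma, adjusted p = 1). TNNI1, the slow muscle troponin I, had 11.1, 9.83 and 4.96 FPKM with 2 copies, against 8.73, 2.64 and 1.88 FPKM with 1 copy (1.19 ± 0.58), with overlap through 7Y4 and 7W2. The slow troponin T gene sTnT, outside the lists, was picked by its order in these same libraries, with a difference of 1.64 ± 0.35. With means of 2.65 FPKM for 2 copies and 0.809 FPKM for 1 copy, it passed the minimum mean only through the 2-copy libraries. Its difference was 0.12 in the yellow birds of 11 weeks. Of the smooth muscle markers, TAGLN, transgelin, had 56.2, 48.1 and 37.2 FPKM with 2 copies, against 89.9, 47.9 and 86.8 FPKM with 1 copy, and overlapped through 7Y1. ACTA2, smooth muscle actin and the marker shared with other contractile cells, did not order: 34.2, 24.5 and 38.3 FPKM with 2 copies, against 33.8, 32.2 and 30.5 FPKM with 1 copy. The summed FPKM of the 8 smooth muscle markers was 93.9 to 111.5 in 2-copy libraries, against 105.9 to 163.9 in 1-copy libraries. Of the 9 striated muscle markers in the file, MYL1 and MYOZ1 were listed at 0 in the 6 libraries, and the sums were 14.6 to 23.1 FPKM against 17.4 to 29.8 FPKM. How much muscle was plucked with each follicle was not measured, and its part in these differences was not tested.

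The yellow birds of 11 weeks did not repeat this order, and their differences lay in the opposite direction. DES had 10.9 FPKM in the 2-copy library 1Y4, against 5.07 and 4.57 FPKM in the 1-copy libraries 1Y1 and 1Y3. CNN1 had 2.33 FPKM in 1Y4, against 1.49 and 1.27 FPKM, and TAGLN had 23.7 FPKM, against 10.6 and 11.3 FPKM. Over the 7 markers the median difference was 0.72 at 11 weeks in yellow birds, where 7 of 7 were positive, whereas at 7 weeks it was -0.79 within white and -0.69 within yellow libraries. With the yellow libraries of both ages fitted together the median was 0.16. The white libraries of 11 weeks, which have 2 copies each, spread widely, with DES at 35.0, 7.72 and 29.8 FPKM. With these included, DES, CNN1, TAGLN and ACTA1 were higher without overlap with 2 copies at 11 weeks, beside 7.3% of all genes. MYH11, ACTA2 and MYLK overlapped. ACTA1 had 31.4, 9.28, 26.2 and 10.4 FPKM in 1W1, 1W3, 1W4 and 1Y4, against 8.5 and 8.31 FPKM in 1Y1 and 1Y3.

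**Figure D3:**
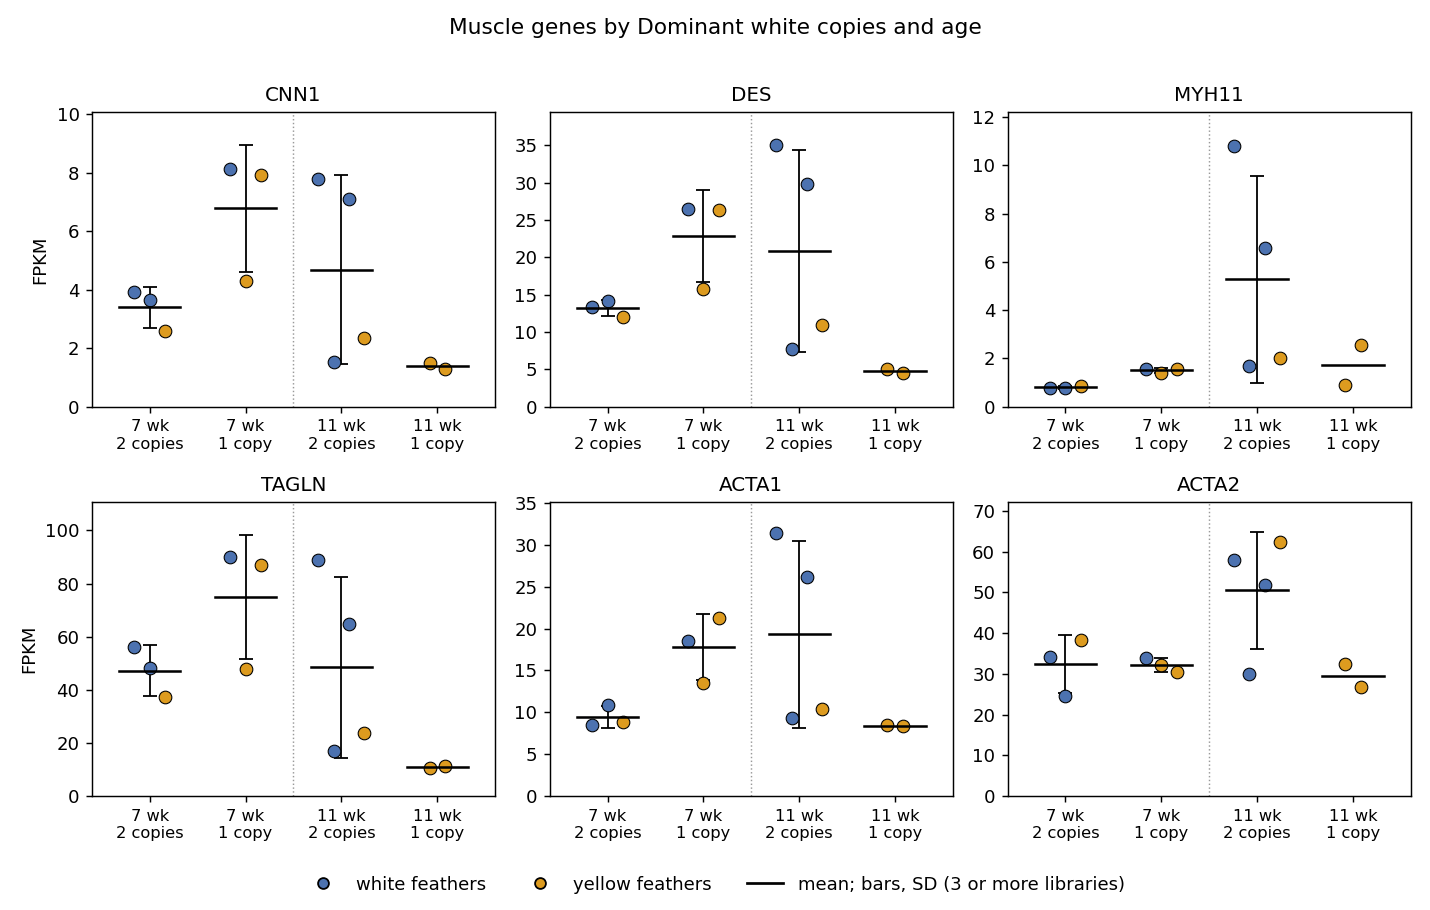
FPKM of 6 muscle genes by copies of Dominant white at 7 weeks (left pair) and 11 weeks (right pair); points are libraries coloured by plumage, lines are means, and bars are the SD where a group has 3 or more libraries. DES is lower with 2 copies at 7 weeks (12 to 14.2 FPKM, against 15.7 to 26.5 FPKM), while at 11 weeks the 2-copy libraries spread from 7.72 to 35.0 FPKM, above 5.07 and 4.57 FPKM with 1 copy.

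Connective tissue genes of the pulp lay on the other side. All 10 tested dermal fibroblast markers had a positive difference, with a median of 0.31 (0.37 with colour as a covariate), 0 were called and 2 were higher without overlap, beside 5.99% of all genes. COL1A1, the chain that makes up most of collagen I, had 1287.8, 1046.0 and 1226.3 FPKM in 2-copy libraries, against 1034.4, 867.5 and 805.9 FPKM in 1-copy libraries (log2 difference 0.40 ± 0.13, limma, adjusted p = 1). TWIST2, a transcription factor of dermal cells, had 21.9, 18.0 and 23.6 FPKM with 2 copies, against 16.7, 15.6 and 15.1 FPKM with 1 copy (0.41 ± 0.13). LUM, the proteoglycan lumican, had 67.1, 45.1 and 64.4 FPKM with 2 copies, against 48.5, 31.0 and 36.4 FPKM with 1 copy, and the groups overlapped between 7W3 and 7W2. COL3A1, another fibrillar collagen, overlapped too, with a difference of 0.29 ± 0.19.

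Within each colour the fibroblast list was positive, and whether its size differed between the colours was not tested. The list's median was 0.08 within white libraries, where 7 of 10 members were positive, and 0.66 within yellow libraries, where 10 of 10 were. At 11 weeks the yellow 2-copy library 1Y4 gave a median of 0.78 and 10 of 10 positive members, with COL1A1 at 1335.7 FPKM, against 955.7 and 454.1 FPKM in 1Y1 and 1Y3. The white 2-copy libraries 1W1, 1W3 and 1W4 had COL1A1 at 784.9, 945.8 and 1058.8 FPKM, so the copy groups of 11 weeks overlapped. The all-gene medians were -0.04 within white, 0.17 within yellow and 0.04 in yellow birds of 11 weeks. Each within-colour value rests on a single library on one side, 7W2 among white and 7Y4 or 1Y4 among yellow.

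Other cell types of the pulp had the same lean toward the yellow 2-copy library. The 6 tested endothelial markers were positive, with a median of 0.16. The median was 0.59 within yellow and 0.08 within white libraries, and it was -0.06 without 7Y4. The summed endothelial markers were 38.3 FPKM in 7Y4, against 24.8 to 26.9 FPKM in the 1-copy libraries, while 7W1 and 7W3 had 26.2 and 25.9 FPKM. EGFL7, secreted by vessel endothelium, was the member without overlap, at 11.0, 11.0 and 11.9 FPKM with 2 copies, against 8.93, 8.81 and 9.97 FPKM with 1 copy. The 6 tested immune markers were positive (median 0.36, and 0.22 without 7Y4), with sums of 29.2 to 51.1 FPKM, against 25.6 to 31.7 FPKM, and 1 of the CD8A entries was listed at 0 in the 6 libraries. CD3D, a T cell receptor chain, had 5.37, 6.04 and 5.73 FPKM with 2 copies, against 5.37, 4.42 and 4.48 FPKM with 1 copy. SPI1, the myeloid transcription factor PU.1, had 2.65, 1.68 and 3.90 FPKM, against 1.74, 1.63 and 1.44 FPKM, and overlapped through 7W3.

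The 11 tested keratinocyte markers had negative differences of -0.61 to -0.04, with a median of -0.19 (-0.16 with colour as a covariate), 0 called and 2 lower without overlap, beside 1.82% of all genes. Within colours the sign was mixed, with 2 of 11 positive in white and 5 of 11 in yellow libraries, beside 4394 and 7613 of all 10257 genes. The largest in size were PKP1, plakophilin, at -0.61 ± 0.69, and DSG2, desmoglein, at -0.49 ± 0.47, desmosome genes whose groups overlapped. KRT14, a keratin of the basal epidermal layer, had 225.9, 207.1 and 214.0 FPKM in 2-copy libraries, against 249.4, 257.6 and 231.3 FPKM in 1-copy libraries (-0.19 ± 0.08). SFN, the epithelial protein stratifin, had 3471.5, 3818.6 and 3648.1 FPKM with 2 copies, against 4061.7, 4022.9 and 4358.1 FPKM with 1 copy. The summed markers were 5144.3 to 5811.3 FPKM with 2 copies, against 5955.8 to 6533.2 FPKM with 1 copy, so the sums did not overlap. SFN alone made up most of this sum in each library. The summed fibroblast markers were 1673.2 to 2272.4 FPKM with 2 copies, against 1344.1 to 1726.6 FPKM with 1 copy. These sums overlapped, as did those of the smooth muscle markers. The balance of epithelial, fibroblast and muscle markers was measured in whole follicles, and its part in the results for single genes was not tested.

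Melanocyte markers summed to 203.2 to 1689.8 FPKM in 2-copy libraries, against 255.6 to 902.0 FPKM in 1-copy libraries. By colour the sums were 703.2 to 1689.8 FPKM in white and 203.2 to 375.7 FPKM in yellow libraries. Of the 7 tested melanocyte markers, 7 had a positive copy difference within white and 0 within yellow libraries, beside 4394 and 7613 of all 10257 genes. The white 2-copy libraries lay on both sides of the white 1-copy library 7W2. Their sums were 1689.8 FPKM in 7W1 and 703.2 FPKM in 7W3, against 902.0 FPKM in 7W2. DCT, below the minimum for testing, was at -2.65 within white and -0.52 within yellow libraries. Of the remaining lists, 9 of 11 proliferation genes had a positive difference (median 0.09), 7 of 9 immediate early genes a negative one (median -0.13), and 3 of 5 Schwann cell genes a positive one (median 0.15). Within white libraries 1 of 11 proliferation genes was positive (median -0.09), beside 4394 of all 10257 genes (-0.04). Within yellow libraries 11 of 11 were positive (0.29), beside 7613 of all 10257 genes (0.17). In yellow birds of 11 weeks 1 of 11 was positive (-0.18), beside 5793 of all 10257 genes (0.04). A single library sets one side of each of these values. The 3 tested erythroid markers had a median of 0.25, with HBE and HBZ listed at 0 in the 6 libraries, and the 3 adipocyte markers a median of 0.21.

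**Figure D4:**
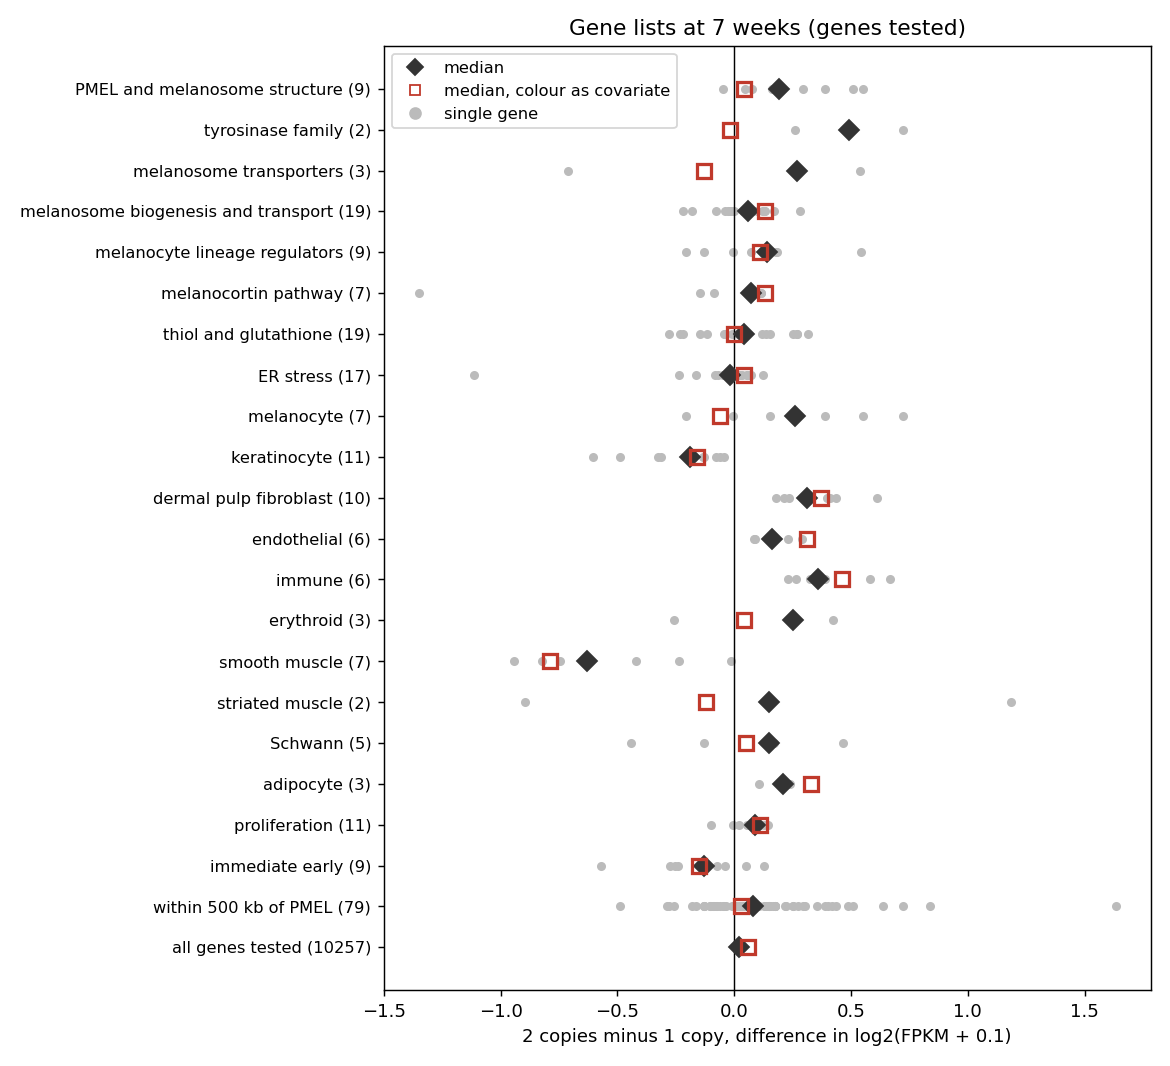
Difference in log2(FPKM + 0.1), 2 copies minus 1 copy at 7 weeks, for each gene list (genes tested in parentheses); grey points are genes, filled diamonds the list medians and open squares the medians with colour as a covariate. The smooth muscle median lies lowest at -0.63, the fibroblast and immune medians lie at 0.31 and 0.36, and the tyrosinase family median is 0.49, or -0.02 with colour as a covariate.

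Among genes with a symbol whose groups did not overlap, the 10 largest differences in the higher direction included a pair of neighbours from the major histocompatibility complex. C4 (chromosome 16, 2609634 to 2624278), the fourth complement component, had 5.70, 2.40 and 5.46 FPKM in 2-copy libraries, against 1.49, 1.21 and 1.00 FPKM in 1-copy libraries, a log2 difference of 1.71 ± 0.36 (limma, adjusted p = 1). BF2 (2606527 to 2609057), the main classical class I heavy chain of chickens, had 280.0, 55.7 and 81.3 FPKM with 2 copies, against 54.8, 40.1 and 41.8 FPKM with 1 copy (1.26 ± 0.55). 7W1 was far above the others, and 7W3 and 7W2 nearly met. BF2 has a close relative in BF1, at a difference of 0.69, and how reads shared by the pair were assigned is not given in the sources used here, so both values are uncertain. At 11 weeks C4 was at 2.27, 1.24, 1.21 and 3.89 FPKM in the 2-copy libraries 1W1, 1W3, 1W4 and 1Y4, against 1.03 and 0.750 FPKM in 1Y1 and 1Y3. BF2 was at 220.9, 34.6, 71.5 and 48.4 FPKM, against 33.6 and 32.2 FPKM, so both genes kept the order at both ages, and number 1 of the white birds had the highest BF2 both times. Both genes were picked by their order at 7 weeks, and at 11 weeks their lowest 2-copy values nearly met the 1-copy ones. The 1-copy libraries of 11 weeks were both yellow, and equal numbers may be the same bird, so the ages may not be independent.

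The other genes of this set had varied roles. CYTL1, a small secreted protein known from cartilage, had 29.2, 17.2 and 13.5 FPKM with 2 copies, against 9.38, 4.64 and 3.17 FPKM with 1 copy (1.85 ± 0.43). At 11 weeks it was at 32.3 FPKM in 1Y4 and between 1.99 and 3.60 FPKM in the 5 others. CCL19, a chemokine that draws lymphocytes and dendritic cells, had 3.42, 1.27 and 3.36 FPKM, against 0.527, 1.23 and 0.868 FPKM, and 7W3 and 7Y1 were nearly equal. ADCYAP1, the neuropeptide PACAP, had 6.86, 5.11 and 2.68 FPKM, against 0.615, 2.44 and 2.48 FPKM. MDFI, an inhibitor of myogenic transcription factors, had 2.35, 2.17 and 2.46 FPKM, against 0.535, 1.38 and 0.605 FPKM. The remaining 4 were FKCOSL, a feather keratin-like gene, sTnT, the slow muscle troponin T, DYNLRB2, a dynein light chain, and SNX22, a sorting nexin, with differences of 1.64 for sTnT, 1.35 for DYNLRB2 and 1.14 for SNX22.

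In the lower direction the largest difference was that of COA4, an assembly factor of cytochrome c oxidase, at 3.88, 2.15 and 3.49 FPKM in 2-copy libraries, against 12.8, 12.7 and 31.9 FPKM in 1-copy libraries (-2.45 ± 0.40, limma, adjusted p = 1). Within both colours the difference was over 2 on the log2 scale in size (-2.11 in white, -2.50 in yellow), yet in yellow birds of 11 weeks it was 0.17. WFIKKN2, which binds myostatin and related ligands, had 1.24, 1.58 and 0.880 FPKM with 2 copies, against 5.47, 2.15 and 5.32 FPKM with 1 copy. NOV, the matricellular protein CCN3, had 6.03, 15 and 7.80 FPKM with 2 copies, against 15.8, 19.1 and 21.5 FPKM with 1 copy. Its difference of -1.06 at 7 weeks stood beside -1.29 in the yellow birds of 11 weeks, through 14.1 FPKM in 1Y4. The white 2-copy libraries 1W1, 1W3 and 1W4 had 42.4, 42.6 and 44.2 FPKM of NOV, above 39.8 and 29.9 FPKM in 1Y1 and 1Y3. In the yellow birds of 11 weeks WFIKKN2 was at 1.81, TM4SF1 at 0.72 and CRYBB2 at 0.46, opposite to their sign at 7 weeks. NAA80, an acetyltransferase of actin, CRYBB2, a crystallin, TM4SF1, a membrane protein, and SLC35E4, a transporter of unassigned substrate, had differences of -2.20, -1.82, -1.12 and -1.02. NAA80 and CRYBB2 rested on 7W1, listed at 1.11e-07 and 0.131 FPKM, and were at -1.05 and -0.74 without it. CHAC1, CNN1 and ACTA1 complete the 10.

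Several genes were at or near 0 in the 1-copy libraries and reached the minimum mean of 1 FPKM only through the 2-copy ones. The filter thus helped to select this pattern, which is described and not called. FKCOSL (chromosome 27) had 20.7, 4.40 and 0.660 FPKM with 2 copies and was listed at 0 in the 3 libraries with 1 copy. ENSGALG00000006133 (chromosome 7, 6834551 to 6835948), without a symbol, was chosen after its values were seen. It had 76.0, 34.9 and 1.37 FPKM with 2 copies, against 0.131 FPKM in 7W2 and 0 in 7Y1 and 7Y3. ENSGALG00000052025 and ENSGALG00000032352, both chosen after their values were seen, had 5.50, 3.74 and 0.656 FPKM and 15, 2.22 and 4.75 FPKM with 2 copies and were listed at 0 with 1 copy. The yellow 2-copy library was far below the white ones in the first 3 of these genes. At 11 weeks 1Y4 had 252.2 FPKM of FKCOSL, 64.5 FPKM of ENSGALG00000006133 and 57.8 FPKM of ENSGALG00000052025, while the 3 white 2-copy libraries had under 1 FPKM of each. ENSGALG00000032352 went another way at 11 weeks, with 3.14, 3.34, 0 and 0 FPKM in the 2-copy libraries 1W1, 1W3, 1W4 and 1Y4, against 0 and 6.68 FPKM in 1Y1 and 1Y3. Feather keratin genes lie in near-identical copies, so the share of reads assigned to FKCOSL is uncertain. The filter helped to select other genes of the largest differences as well. CCL19, MDFI and sTnT averaged 0.874, 0.841 and 0.809 FPKM with 1 copy and passed only through the 2-copy libraries. NAA80 and SLC35E4 averaged 0.67 and 0.836 FPKM with 2 copies and passed only through the 1-copy libraries.

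ENSGALG00000014585, at 4941784 to 4942879 on chromosome 19 and without a symbol in the files, followed the copies most closely. It had 68.3, 66.1 and 99.7 FPKM in 2-copy libraries, against 24.5, 27.3 and 27.5 FPKM in 1-copy libraries, with means of 78.0 ± 18.8 and 26.4 ± 1.67 FPKM (SD, n = 3 each). The log2 difference was 1.53 ± 0.17 (limma, adjusted p = 0.356) and 1.66 ± 0.12 with colour as a covariate (adjusted p = 0.0662), so it missed the threshold in both. It passed in the fit without 7Y4 (adjusted p = 0.0222) and, with colour as a covariate, without 7W2 (adjusted p = 0.0462). It was 1.45 within white and 1.86 within yellow libraries. At 11 weeks it had 58.8, 55.3, 72.7 and 56.5 FPKM in the 2-copy libraries 1W1, 1W3, 1W4 and 1Y4, against 35.0 and 28.9 FPKM in 1Y1 and 1Y3, so each of the 7 libraries with 2 copies in the series was above each of the 5 with 1 copy. The gene was singled out after its values were seen, and equal replicate numbers at the 2 ages may be the same bird, which the sources used here do not settle.

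**Figure D5:**
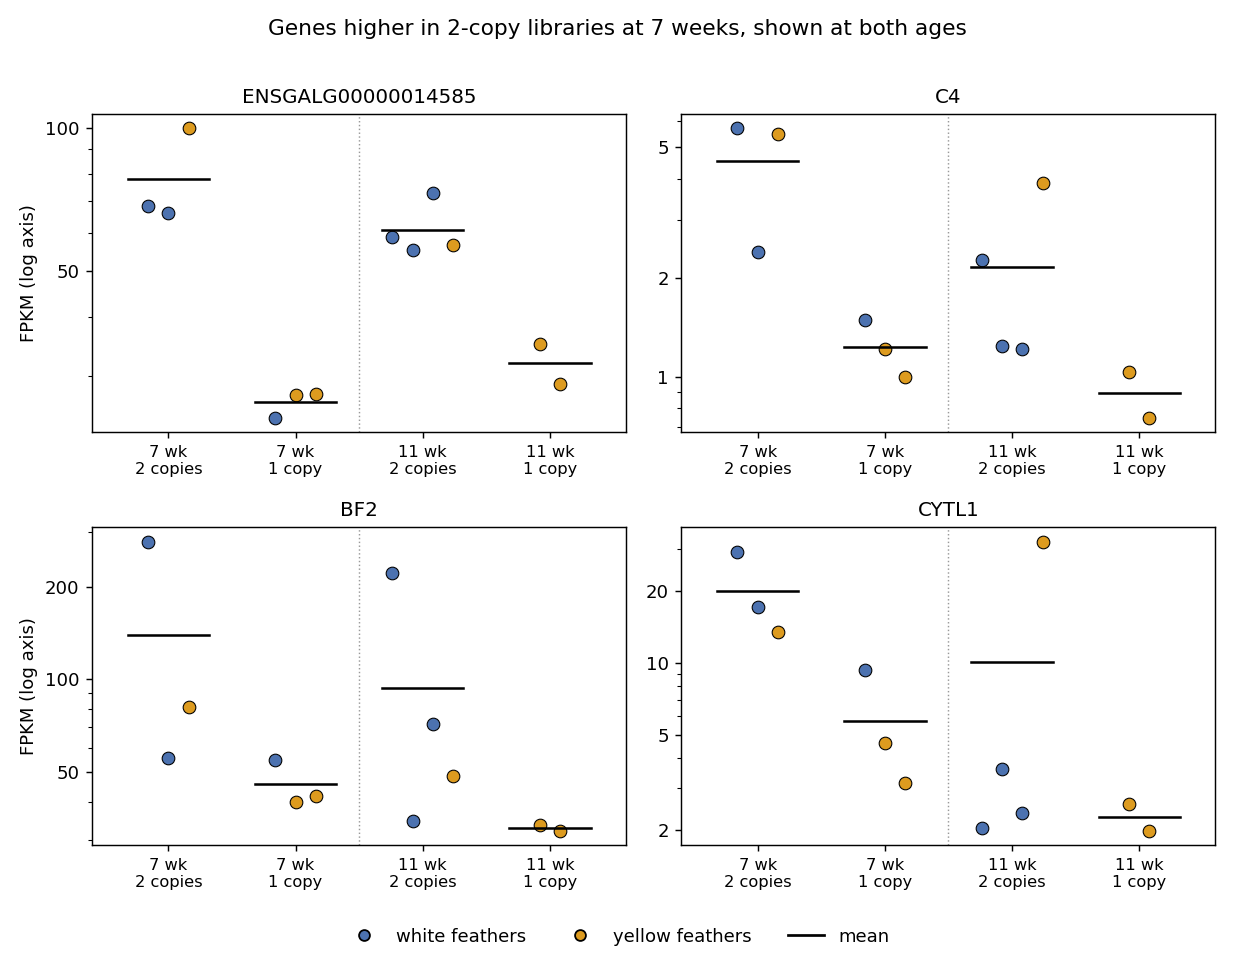
FPKM (log axis) of 4 genes that were higher in each 2-copy library than in each 1-copy library at 7 weeks, shown for 7 weeks (left pair) and 11 weeks (right pair); points are libraries coloured by plumage and lines are means. ENSGALG00000014585 is at 55.3 FPKM or more with 2 copies and at 35.0 FPKM or less with 1 copy at both ages, while CYTL1 at 11 weeks is high in the yellow 2-copy library alone, at 32.3 FPKM.

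At 11 weeks the 2-copy libraries were 3 white and 1 yellow and the 1-copy libraries both yellow, so copies and colour cannot be told apart there beyond the yellow birds. Without overlap, 749 genes (7.3%) were higher and 440 (4.29%) lower with 2 copies at 11 weeks. Of the 614 genes higher at 7 weeks, 104 were also higher at 11 weeks, 16.9% of the 7-week genes, beside 7.3% of all genes at 11 weeks, and 13.9% of the 11-week genes, beside 5.99% of all genes at 7 weeks, and 5 were lower. Of the 187 genes lower at 7 weeks, 8 were also lower at 11 weeks, 4.28% of the 7-week genes, beside 4.29% of all genes at 11 weeks, and 1.82% of the 11-week genes, beside 1.82% of all genes at 7 weeks, and 5 were higher. No test of these overlaps was made, and equal replicate numbers at the 2 ages may be the same bird. The ages may therefore not be independent. PRPH, a neuronal intermediate filament gene on chromosome 33 (5425816 to 5426967) and chosen after its values were seen, is among the 8, with 2.82, 3.62 and 2.69 FPKM in the 2-copy libraries of 7 weeks, against 5.35, 4.41 and 4.63 FPKM in the 1-copy libraries.

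Whether the copy difference was unlike in yellow and white birds was fitted as an interaction. Of the 10257 genes 2 passed both thresholds (0.0195%) with limma, and 634 had an unadjusted p under 0.05. Neither has a symbol in the files. Of the pigment genes, PMEL was at -0.99 ± 0.80 (adjusted p = 0.662), MLANA at -0.64 ± 0.78 (adjusted p = 0.746), TYR at -0.82 ± 0.76 (adjusted p = 0.689) and TYRP1 at -1.42 ± 0.65 (adjusted p = 0.61). MC1R had a larger value of -3.99 ± 0.81 (adjusted p = 0.61), with a copy difference of -1.66 within yellow and 2.34 within white libraries, and was not called. Since white birds with 1 copy and yellow birds with 2 copies are 1 library each, this fit compares single libraries on one side and has 2 residual degrees of freedom.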

How the data were processed

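Feather follicle RNA (paired-end reads) was sequenced by the authors, aligned to GRCg6a with TopHat2 on a Bowtie2 2.2.3 index, counted per gene with HTSeq 0.6.0 and deposited as FPKM for 24353 genes. The program that wrote the FPKM is not given in the sources used here. Of the deposited FPKM values, 562 lie above 0 and below 1e-06, so read counts and depth per value could not be recovered. The 7-week libraries were grouped by the genotype table of the study, not by the labels. The 10257 genes that averaged 1 FPKM or more in the 6 libraries were fitted as log2(FPKM + 0.1) with limma 3.58.1 in R 4.3.3 (eBayes with trend, Benjamini-Hochberg over all genes), 2 copies minus 1 copy. A log2(FPKM + 0.1) difference understates the change of low genes. A gene was called at an adjusted p up to 0.05 with a log2 difference of 1 or more in size. The fits were run on simulated data with an added difference, and the check was on the size of its estimate alone. Genes named are PMEL, members of the lists, genes within 500 kb of PMEL and genes called in a fit, except where said. Also named are the 10 largest differences without overlap in each direction among genes with a symbol, and BF1 beside BF2. Members, lists and tests were chosen with earlier results of these data known. Alternatives were other pseudocounts, filters, scalings and eBayes settings, colour, replicate block, shared spread, yellow libraries of both ages, and leaving out each library.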

Additional observations from a re-analysis of the deposited data

Results flagged for a closer look

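In 2 genes without a symbol the copy difference was unlike in yellow and white birds by the interaction term of limma. ENSGALG00000052452 (chromosome 1, 194308711 to 194309570) differed by -6.19 ± 0.21 between the colours (adjusted p = 0.00477), with 64.9 and 60.7 FPKM in the white 2-copy libraries, against 53.2 FPKM in the white 1-copy library, and 0.107 FPKM in the yellow 2-copy library, against 12.7 and 12.7 FPKM in the yellow 1-copy libraries. ENSGALG00000027167 (chromosome 25, 3123319 to 3124408) differed by -4.85 ± 0.24 (adjusted p = 0.0179), with 420.7 and 417.9 FPKM in white 2-copy libraries, against 33.5 FPKM in the white 1-copy library, and 49.8 FPKM in the yellow 2-copy library, against 129.9 and 103.0 FPKM in the yellow 1-copy libraries. In the yellow birds of 11 weeks ENSGALG00000027167 went the other way than in the yellow birds of 7 weeks, with a difference of 3.33. A single library, 7Y4 or 7W2, sets one side of each value.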

How the results depend on the processing

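The count of called genes, 0, was the same with other pseudocounts, filters, scalings, eBayes settings, colour as a covariate, the yellow libraries of both ages or no fold threshold. It was 2 with a spread shared by 12 libraries (ENSGALG00000014585 and ENSGALG00000006133). That fit takes the mean of the within-white and within-yellow differences, the same estimate as with colour as a covariate. ENSGALG00000014585 was also called without 7Y4 (adjusted p = 0.0222), in the replicate block (0.0325) and, with colour as a covariate, at a pseudocount of 0.01 (0.0488), with robust eBayes (0.0409) and without 7W2 (0.0462), while in the plain fit its adjusted p was 1 without 7W2. Leaving out 1 library gave 0 to 7: 7 without 7Y4, after which the 2-copy libraries were both white, and 1 without 7Y1 (ENSGALG00000049449). Genes with an unadjusted p under 0.05 numbered 1143 in the replicate block. The replicate block gave 24 called genes, 23 of them higher, TYRP1 (2.37, adjusted p = 0.0164), CYTL1 (2.52, adjusted p = 0.0108) and TNNI1 (2.18, adjusted p = 0.0291) among them. The replicate block rests on 2 pairs that differ in colour as well and leaves 1 residual degree of freedom. Deviations correlated at -0.232 in the pair of number 1 and 0.331 in that of number 3. These 2 values cannot settle whether the numbers pair the libraries. With colour as a covariate the count was 2 at a pseudocount of 0.01, 1 with robust eBayes, and 0 to 4 on leaving out 1 library: 4 without 7Y4, 3 without 7W2 and 1 without 7Y1. With no filter, genes without overlap numbered 954 higher and 331 lower. The cause of these changes was not tested.

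With colour as a covariate these log2 differences changed sign: PMEL (-0.22), MLANA (-0.18), GPR143 (-0.14), TYRP1 (-0.10), SLC24A5 (-0.13), HPGDS (-0.50), MC1R (0.34) and ACTA2 (0.03). The shared spread gave the same values by construction. In the yellow libraries of both ages, PMEL (-0.61), MLANA (-0.40), GPR143 (-0.23), TYRP1 (-0.77), TYR (-0.24), SLC24A5 (-0.56), HPGDS (-0.30), POMC (1.33), EDN3 (-0.32), CDK2 (-0.10), DES (0.21), TAGLN (0.16), MYLK (0.06) and ACTA2 (0.69) did. In the replicate block DGKA (0.01) and ENSGALG00000052452 (2.29) did. On leaving out 1 library, the genes that changed sign ranged as follows: PMEL -0.25 (without 7W1) to 1.49, MLANA -0.24 to 1.06, GPR143 -0.26 to 0.48, TYRP1 -0.08 to 1.78, TYR -0.24 to 0.59, SLC24A5 -0.15 to 1.28 and HPGDS -0.49 to 1.09, each lowest without 7W1, and MFSD12 -1.43 to 0.01, MC1R -1.30 to 0.56, ACTA2 -0.15 to 0.17, PKP1 -1.37 (without 7Y4) to 0.04 (without 7W1) and ENSGALG00000052452 -2.54 to 1.61. The medians of the 21 lists moved by less than 1 SD between libraries under the 9 alternatives of pseudocount, filter, scaling and eBayes. More than that moved 10 of the 21 with the yellow libraries of both ages, 4 with the replicate block, 1 each with colour as a covariate and with the shared spread, 2 without 7W1, 1 without each of 7Y4, 7W2, 7Y1 and 7Y3, and 0 without 7W3. The tyrosinase family median ran between -0.50 and 1.51. No precision from read depth could be given.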
